A study of Mus musculus with 16 samples.

Results

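Mouse embryonic stem cells in which the ERK pathway had been switched on for 4 h were compared with the same cells before induction. The comparison takes 8 of the 16 RNA-seq libraries of the series, 4 collected before induction (0h) and 4 collected 4 h after it (4h), picked by the group and clone given in the sample titles, and covers the 12215 of 52636 gene identifiers that passed a filter on low counts. All cells were of the line CRAFR26, embryonic stem cells targeted with an inducible form of the kinase c-RAF that is switched on by 4-hydroxytamoxifen (4OHT). The usual medium was N2B27 with 3 µM CHIR99021 (an inhibitor of GSK3), 1 µM PD0325901 (an inhibitor of MEK) and 1000 U/ml of LIF. For 48 h before sampling, cells of both groups had 250 nM of the FGF receptor inhibitor PD173074 where the MEK inhibitor had been, and the 4h group then had 250 nM 4OHT for 4 h. Each group held 2 libraries of clone 4 and 2 of clone 8, so 2 clones stand for the line. No group of the series is labelled as having received the solvent of 4OHT, so effects of 4OHT itself and of the kinase cannot be told apart. The labels do not say whether the 2 replicates of a clone were separate cultures, so that p-values measure the spread between these samples, which may be technical. The 2h and rev libraries (2 h of induction, and 4 h of induction followed by 2 h of MEK inhibitor) entered the model for its estimate of spread and are named only where a value of theirs is given.

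RAF kinases phosphorylate MEK, MEK phosphorylates ERK, and ERK enters the nucleus, where it acts on ETS family factors and on partners of the serum response factor SRF. Immediate-early genes such as Fos and Egr1 respond first, and inhibitors of the pathway itself (Sprouty and Spred proteins and the dual-specificity phosphatases, Dusp) are among the targets and form its negative feedback. In mouse embryonic stem cells the pathway normally lies downstream of the growth factor Fgf4. Blocking it with a MEK inhibitor helps hold cells in the naive state, while its activity is needed for the step towards the formative epiblast and for the primitive endoderm.

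Total counts ran from 3650634 to 8619477 in the 0h libraries and from 4188763 to 7008546 in the 4h libraries. The 8 most abundant gene models, the mitochondrial rRNAs mt-Rnr1 and mt-Rnr2 among them, took 58.6% to 63.4% of counts in the 0h libraries, 60.4% and 62.4% in the 4h libraries of clone 8, and 42.01% and 51.7% in the 4h libraries of clone 4. This share was therefore lower at 4h in clone 4 and higher at 4h in clone 8. A fit that held it as a covariate called 1913 genes higher and 1810 lower. The summed level of 10 embryonic stem cell markers ran from 1429 to 1673 CPM (counts scaled to a fixed library size) at 0h and from 1441 to 1693 CPM at 4h, all 10 above the filter. Of 10 fibroblast (feeder) markers, Col3a1, Postn and Dcn had no count in any of the 8 libraries, and the list's summed level ran from 13.6 to 14.97 CPM at 0h and from 7.63 to 11.2 CPM at 4h. Neural markers (Neurog2 and Dcx at 0) summed to between 54.4 and 71.7 CPM at 0h and to between 41.6 and 52.4 CPM at 4h, trophoblast markers (Tpbpa and Prl3d1 at 0) to 48.2 to 60.3 and 45.5 to 51.4 CPM, primitive endoderm markers to 3.80 to 7.27 and 4.73 to 8.16 CPM, and mesoderm markers (none at 0) to 14.6 to 19.01 and 14.998 to 29.1 CPM. The part of such cells in the results was not tested.

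After 4 h of induction 2098 genes (17.2% of those tested) were higher and 2048 (16.8%) were lower, by edgeR's quasi-likelihood test with Benjamini-Hochberg adjustment at 0.05. Most changes were small. A change of at least 2-fold was reached by 305 higher genes (2.5%) and 424 lower genes (3.47%), of at least 4-fold by 95 higher and 20 lower genes, and of at least 8-fold by 38 higher genes and 1 lower gene (Unc5cl). The direction was the same in both clones for 4119 of the 4146 called genes. The calls came from 1 fit over both clones, which favours genes with 1 direction. The count is therefore no measure of replication between clones. The median log2 change of all tested genes was -0.02, and 0.09 when libraries were scaled to their total alone, which called 554 genes higher and 327 lower, so that 62.9% of calls were higher against 50.6% with composition scaling. In bulk RNA, a change in level per cell and a change in the share of cells that express a gene cannot be told apart.

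**Figure D1:**
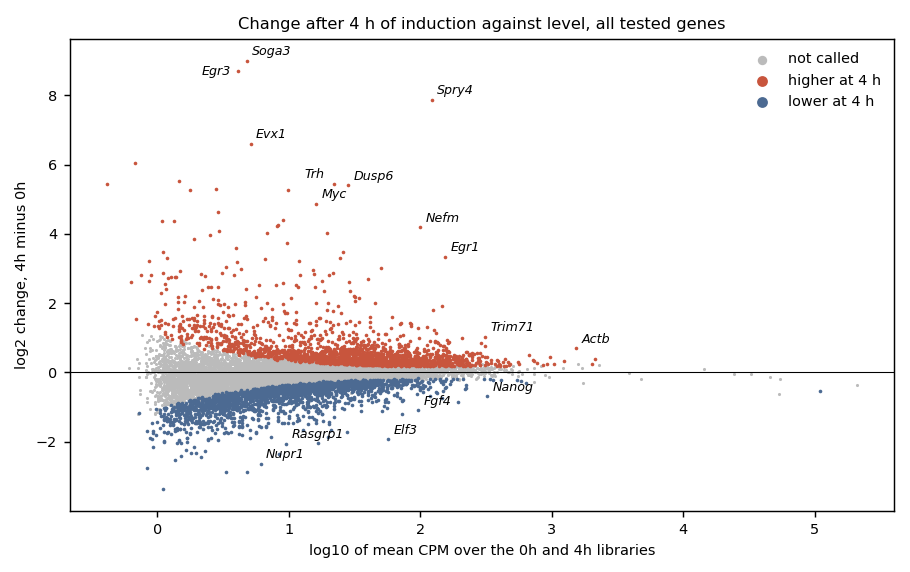
Log2 change from 0h to 4h (vertical axis) against the log10 of the mean level in CPM over the 8 libraries (horizontal axis) for the 12215 tested genes, each point 1 gene, coloured by its call. The 38 genes that rose at least 8-fold lie far above the cloud, while 1 gene fell by as much; fitted values of Soga3 and Egr3, which had no count at 0h, depend on the prior count.

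The 270 protein-coding genes that rose at least 2-fold had a median genomic span of 15.7 kb, against 27.9 kb for the 385 that fell at least 2-fold and 24.9 kb for all tested protein-coding genes. Their median level at 0h was 2.24 CPM, and 66.7% of them stood under 5 CPM at 0h, against 24.4% of all tested protein-coding genes. Of the genes that fell at least 2-fold, 62.1% also stood under 5 CPM at 0h, so a low start was shared by both directions.

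Most of the tested feedback inhibitors of the pathway rose. Of the 28 on the list 26 were tested, 17 were higher, 1 was lower and 8 were not called, beside 17.2% higher and 16.8% lower of all genes, with a median log2 change of 0.73. The list was drawn up with earlier results of these data known. Spry4 encodes a Sprouty protein that restrains signalling from receptors to RAF (chr18:38586247-38601415, minus strand, mm10). It showed the largest change of the called genes with a mean of at least 5 CPM over the 8 libraries. Its level at 0h was 0.815 and 0.448 CPM in clone 4 and 1.77 and 0.962 CPM in clone 8, and at 4h it was 254 and 287 CPM in clone 4 and 219 and 220.0 CPM in clone 8. Every 4h library thus lay far above every 0h library, a log2 change of 7.88 ± 0.16 (SE, n = 4 libraries a group, adjusted p = 4.6e-29). Dusp6, the cytoplasmic phosphatase that removes the activating phosphates of ERK (chr10:99263231-99267489, plus strand), had 1.36, 0.597, 1.45 and 1.604 CPM at 0h and 67.4, 59.9, 50.5 and 42.9 CPM at 4h. The log2 change of Dusp6 was 5.40 ± 0.17 (SE, adjusted p = 8.1e-23), with the clone 4 libraries above those of clone 8 at 4h and no overlap with 0h.

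Nuclear phosphatases of the same family followed. Dusp4 stood between 1.04 and 1.63 CPM at 0h and at 19.7, 23.7, 13.3 and 15.3 CPM at 4h (log2 change 3.73 ± 0.20 SE, adjusted p = 1.7e-16). Dusp5, which binds ERK in the nucleus, went from 4.57 ± 0.41 CPM (SD, n = 4) to 26.9 ± 11.3 CPM, with 34.5 and 38.1 CPM in clone 4 and 20.7 and 14.2 CPM in clone 8 at 4h. Dusp1, a phosphatase with a preference for p38 and JNK, changed least of the phosphatases named here, by 0.59 ± 0.09 on the log2 scale, and its highest 0h library (35.3 CPM) lay above its 2 lowest 4h libraries. Among the adaptors and receptor-level inhibitors, Spry1 rose by 1.53, Errfi1 (an inhibitor of EGF receptors) by 1.40, Spry2 by 1.19, Spred1 by 1.11, Socs2 by 1.00 and Il17rd (Sef) by 0.97 on the log2 scale. Rasa3, a GTPase-activating protein for RAS and RAP, was the lower member, at 17.5 ± 2.4 CPM at 0h and 9.86 ± 2.45 CPM at 4h.

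The kinase cascade itself moved little. Of 31 tested members of the RAS-RAF-MEK-ERK list 6 were higher and 6 lower, each near the background of 17.2% and 16.8%, and the median log2 change was 0.05. With libraries scaled to their total alone none was called higher and 1 was lower, by edgeR at an adjusted p of 0.05. Map2k1 (MEK1) stood at 45.3 ± 0.66 CPM at 0h and 37.7 ± 3.2 CPM at 4h, a call lost without replicate 1 of clone 8 at 4h (adjusted p = 0.072 by edgeR). The change that stands out is that of Rasgrp1, an activator of RAS that responds to diacylglycerol, which was at 15.2, 15.96, 15.1 and 14.3 CPM at 0h and at 2.64, 3.27, 4.75 and 4.999 CPM at 4h. Rasgrp1 fell by 2.06 ± 0.17 (log2, SE; adjusted p = 1.2e-11) with no overlap between the groups. Ksr1, a scaffold for RAF and MEK, fell by 0.80.

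Most of the tested immediate-early transcription factors were higher after 4 h. Of the 29 listed factors 23 were tested, and 20 of them were higher and 1 lower, beside 17.2% and 16.8% of all genes, with a median log2 change of 1.07. Egr1, a zinc-finger factor and a classical ERK target (chr18:34859823-34864984, plus strand), stood at 29.6, 18.6, 25.7 and 31.1 CPM at 0h and at 336, 368, 202 and 229 CPM at 4h. Its log2 change was 3.35 ± 0.15 (SE, adjusted p = 1.9e-18), and both clone 4 libraries exceeded both clone 8 libraries at 4h. Egr3 had no count in any 0h library and 9.35, 14.3, 3.80 and 5.53 CPM at 4h, which is at least 15.9-fold higher against a floor of 3 counts per library. The corepressors Nab2 and Nab1, which bind Egr proteins and limit their activity, rose by 2.83 ± 0.13 and 1.58 ± 0.13 on the log2 scale.

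Myc, the growth-promoting basic helix-loop-helix factor (chr15:61985391-61990374, plus strand), was at 1.09, 0.298, 0.804 and 1.92 CPM at 0h and at 22.2, 27.2, 39.1 and 36.3 CPM at 4h. This is a log2 change of 4.88 ± 0.21 (SE, adjusted p = 9.7e-19), with no overlap between the groups. Of its relatives, Mycn rose by 0.45 while Mycl fell by 0.77 and was the lower member of the list, and neither was called with libraries scaled to their total alone (adjusted p = 0.13 and 0.10 by edgeR). Among the subunits of AP-1, Junb rose by 2.01 to 25.7 ± 1.7 CPM, Fosl2 by 2.83 to 3.90 ± 1.04 CPM, Maff by 1.88 and Fos by 1.59 to 3.94 ± 0.86 CPM. Srf, which carries the signal of growth factors to many of these genes, went from 21.7 ± 3.7 to 42.3 ± 4.5 CPM (log2 change 0.97 ± 0.09 SE, adjusted p = 3.3e-10).

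The immediate-early genes that do not encode transcription factors gave 15 higher and 5 lower among 24 tested members, with a median of 0.92. The share of lower members was near the 16.8% of all genes, that of higher ones stands beside 17.2%, and with libraries scaled to their total alone 13 were higher and 1 lower. Phlda1 rose from between 0.543 and 1.29 CPM to 13.9, 17.6, 15.8 and 16.3 CPM, with like levels in both clones at 4h (log2 change 4.25 ± 0.22 SE, adjusted p = 8.8e-17). Plaur, the receptor of the urokinase plasminogen activator, rose from between 0.272 and 1.18 CPM to 21.2, 20.6, 13.5 and 14.5 CPM (log2 change 4.404 ± 0.25 SE, adjusted p = 9.5e-16). The RNA-binding proteins Zfp36l1 and Zfp36l2, which bind AU-rich elements and speed the decay of their transcripts, rose by 2.87 and 1.59. Arc rose by 2.18, the EGF family ligand Hbegf by 1.42 and the pseudokinase Trib1 by 1.42. The angiogenic growth factor Vegfa went the other way, from 47.0 ± 5.1 to 24.3 ± 3.2 CPM (log2 change -0.93 ± 0.09 SE), as did the small GTPase genes Rhob (-0.61) and Rnd3 (-0.34).

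ETS factors, the family through which ERK acts on many promoters, gave 7 higher and 3 lower of 16 tested, beside 17.2% and 16.8% of all genes, and 4 and 2 with libraries scaled to their total alone. Etv4, of the PEA3 group, rose from 5.43, 6.12, 10.6 and 8.98 CPM to 52.6, 57.6, 47.9 and 39.99 CPM (log2 change 2.62 ± 0.13 SE, adjusted p = 3.5e-17), and its relatives Etv1 and Etv5 rose by 1.37 and 0.63. The repressor Erf, which ERK sends out of the nucleus, rose by 1.09 and Elk4 by 0.57. Elf3, an epithelial member (chr1:135253575-135258568, minus strand), was at 94.0, 96.1, 81.0 and 84.0 CPM at 0h and at 17.9, 19.2, 27.5 and 33.4 CPM at 4h. Elf3 fell by 1.93 ± 0.11 (log2, SE; adjusted p = 1.8e-15), further in clone 4 than in clone 8, and Spic fell by 1.40.

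Several of the largest rises belong to none of these groups. Trh, which encodes the precursor of thyrotropin-releasing hormone (chr6:92242061-92244650, minus strand), was at 0.815, 1.04, 0.965 and 0.855 CPM at 0h and at 50.4, 56.8, 32.5 and 32.4 CPM at 4h (log2 change 5.45 ± 0.19 SE, adjusted p = 1.4e-21). Nefm, the medium neurofilament subunit of axons, stood at 4.89, 8.06, 12.5 and 13.1 CPM at 0h and at 209, 198, 186 and 168 CPM at 4h. That is a log2 change of 4.20 ± 0.13 (SE, adjusted p = 9.4e-23), with the clones in opposite order before and after. The metal ion transporter Slc39a14 went from 2.04 ± 0.89 to 37.4 ± 5.15 CPM (log2 change 4.04 ± 0.16 SE). Cavin1, a coat protein of caveolae, went from 4.14 ± 1.06 to 47.4 ± 14.9 CPM (log2 change 3.49 ± 0.15 SE), while 7 of the 10 genes on its caveola list were too low to test. Fgfbp1, a secreted carrier of FGF proteins, rose from 0.572 ± 0.304 to 7.41 ± 1.55 CPM.

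**Figure D2:**
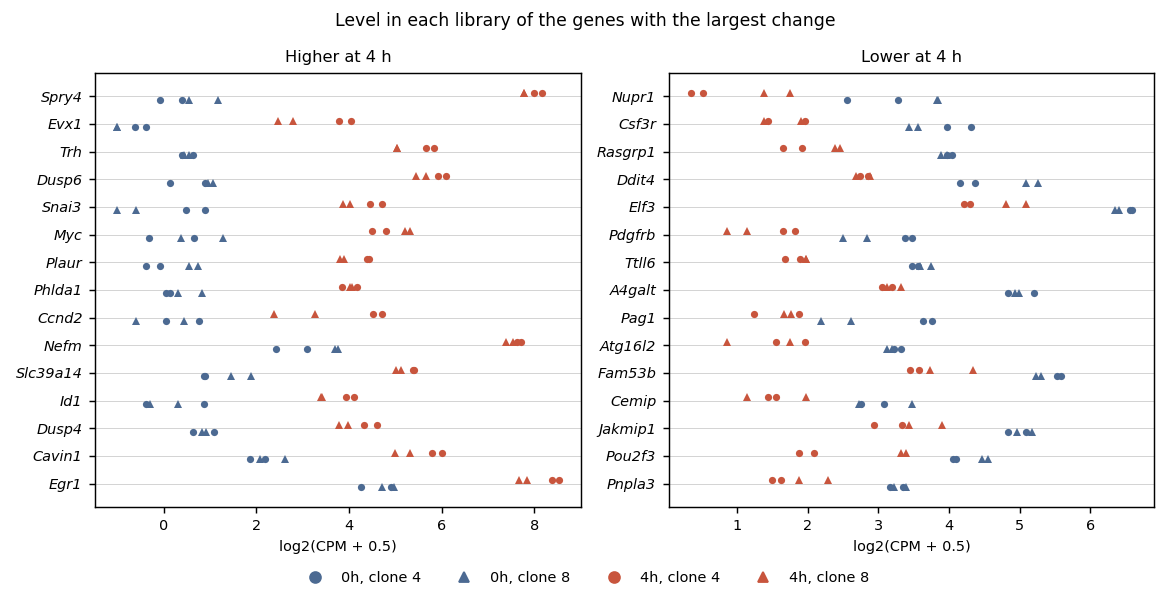
Level of the 15 genes with the largest rise (left) and the 15 with the largest fall (right) among called genes with a mean of at least 5 CPM over the 8 libraries. The horizontal axis is log2(CPM + 0.5), with 1 point for each library (circles clone 4, triangles clone 8). In each row the 0h and 4h points stand apart, which the choice of genes with large changes in 1 direction favours. Spry4 moves farthest, from at most 1.77 to at least 219 CPM, and Nupr1 is the gene that fell most.

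Matches to binding motifs were looked for in the 250 bases before each RefSeq start, in promoters of GRCm38.p6, on both strands. For 206 of the 305 genes that rose at least 2-fold an entry was matched by symbol. A gene was counted if any of its entries held a match. The AP-1 motif TGANTCA was present in 19 of these 206 (9.22%) and in 4.98% of the 9234 tested genes with an entry. It was present in 5.36% of genes that fell at least 2-fold and in 7.82% of all 27025 gene symbols with an entry. The motif reads the same on both strands, and each site was counted once. CCGGAAG, an ETS motif, was found in 8 (3.88%) of the 206, against 16.4% of tested genes and 7.83% of all symbols. The CArG box bound by SRF was found in 2 (0.971%), against 1.33% of tested genes and 1.62% of all, and TGACGTCA, the cAMP response element, in 2.91% against 3.13% and 1.77%. These are descriptions of letters in a window, and no window shows binding. The stretches below, chosen after their values were seen, show AP-1 matches in genes described here and the only pair of adjacent CArG boxes, with the match in capitals and up to 10 bases on either side, read 5′ to 3′ on the strand of the gene.
Plaur: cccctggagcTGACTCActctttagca
Zyx: gtgcggacagTGAGTCAgttctccagc
Zfp36l1: accgcatggcTGATTCAacctcagtgt
Gja1: tccttccagtTGAGTCAgtggcttgaa
Csrnp1, distal: cgaggcttggTGAGTCAcggaccccgg
Csrnp1, proximal: gccactgccgTGAGTCAccggggc
Dusp5, distal: ggggaaatacCCATATTTGGccttatatgg
Dusp5, proximal: ccatatttggCCTTATATGGgcactcacgt

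Coordinates are those of the printed stretch, flanks included, and distances those of the match in capitals. The Plaur stretch lies at chr7:24462404-24462430 (plus strand), with the match 69 to 63 bases before the start, and that of Zyx, a focal adhesion protein, at chr6:42349697-42349723 (plus strand), with the match 121 to 115 bases before it. Gja1, which encodes the gap junction protein connexin 43, has its stretch at chr10:56377271-56377297 (plus strand), with the match 19 to 13 bases before the start, and rose from 12.2 to 31.4 CPM (log2 change 1.38 ± 0.12 SE). The Zfp36l1 stretch lies at chr12:80113126-80113152 on the minus strand. Csrnp1, a nuclear protein of the immediate-early class, has its stretches at chr9:119983109-119983135 and chr9:119983024-119983047 (minus strand) and rose by 1.07 ± 0.13 on the log2 scale. The windows of Csrnp1 and Zyx lie before a RefSeq start but inside the gene as GENCODE M21 annotates it. In Dusp5 the stretches at chr19:53529053-53529082 and chr19:53529063-53529092 (plus strand) overlap and the matches touch, 82 to 73 and 72 to 63 bases before the start. Of the 15 genes with the largest rise 5 had a promoter entry.

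Pluripotency genes moved in both directions. Of the 21 factors on the list of the naive state 8 were higher and 6 lower, beside 17.2% and 16.8% of all genes, and 4 and 2 with libraries scaled to their total alone. The median log2 change was 0.04, near that of all genes. Nanog, the homeobox factor that guards the naive state (chr6:122707489-122714633, plus strand), was at 331, 298, 484 and 461 CPM at 0h and at 180.3, 184, 311 and 324 CPM at 4h. It fell by 0.68 ± 0.07 (log2, SE; adjusted p = 4e-09) within each clone, while the 4h libraries of clone 8 overlapped the 0h libraries of clone 4. Prdm14, a repressor of FGF signalling and of DNA methylation genes, stood at 33.4, 28.3, 28.1 and 34.4 CPM at 0h and at 10.8, 11.6, 11.4 and 18.7 CPM at 4h (log2 change -1.27 ± 0.13 SE, adjusted p = 9.9e-10). Fgf4, the ligand that normally drives ERK in these cells, fell from 133, 113, 132 and 142 CPM to 47.6, 48.0, 75.6 and 79.2 CPM (log2 change -1.09 ± 0.09 SE, adjusted p = 3.5e-12). Smaller falls were those of Dppa3 (-0.54) and Tfcp2l1 (-0.31), a main naive factor whose groups overlapped. Klf4 had a log2 change of -0.35 over both clones, of -0.68 in clone 4 and of -0.05 in clone 8 (adjusted p = 0.78 by edgeR), its groups overlapped, and its adjusted p was 0.45 without the clone covariate.

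Other naive factors rose. Klf5, a Krüppel-like factor, went from 110.1 ± 23.4 to 187 ± 35.7 CPM, the nuclear receptors Nr0b1 (Dax1) and Nr5a2 rose by 0.91 and 0.58 on the log2 scale, and Zfp42 (Rex1) rose by 0.40, with 0.61 in clone 4 and 0.18 in clone 8 (adjusted p = 0.28 by edgeR). Esrrb had a log2 change of 0.23 that was called over both clones, with 0.09 in clone 4 (adjusted p = 0.57 by edgeR) and 0.36 in clone 8. Its call was lost without the clone covariate (adjusted p = 0.19) and when replicate 1 of clone 8 at 0h or either clone 8 library at 4h was left out (adjusted p = 0.056 to 0.084). Manba, a lysosomal mannosidase counted in the list, rose from 6.79, 14.8, 9.17 and 9.30 CPM to 98.2, 88.3, 48.6 and 47.1 CPM (log2 change 2.70 ± 0.12 SE, adjusted p = 2.8e-18), and was the only member of the list to rise at least 2-fold. When libraries were scaled to their total alone, Nanog, Dppa3, Klf4, Tfcp2l1, Esrrb, Zfp42, Pou5f1 and Sox2 were no longer called, with their directions kept. The falls of Prdm14 and Fgf4 and the rises of Klf5, Nr0b1, Nr5a2 and Manba were called there too.

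Of 14 tested factors shared by naive and primed cells 13 were higher, beside 17.2% of all genes, with a median of 0.95, and none was lower by edgeR at an adjusted p of 0.05, at an unadjusted p of 0.05 or by DESeq2. Lin28a, an RNA-binding protein that blocks the maturation of let-7, went from 6.25, 7.16, 4.18 and 2.89 CPM to 35.1, 32.2, 31.0 and 25.3 CPM (log2 change 2.64 ± 0.15 SE, adjusted p = 8.4e-16). Utf1 rose from 9.78 and 9.10 CPM in clone 4 and 26.7 and 28.5 CPM in clone 8 to 47.6 and 57.4 CPM and to 91.0 and 92.9 CPM (log2 change 2.01 ± 0.11 SE, adjusted p = 6.9e-16), with log2 changes of 2.48 in clone 4 and 1.73 in clone 8, a difference that was not called (adjusted p = 0.085 by edgeR). Dnmt3l, the cofactor of the de novo DNA methyltransferases, rose by 1.72, Foxd3 by 1.36 and Trim71, an RNA-binding ubiquitin ligase of early embryos, by 1.03 to 416 ± 28.8 CPM. The core factors Pou5f1 (Oct4) and Sox2 were at 126 ± 8.8 and 172 ± 5.5 CPM at 0h and at 151 ± 11.3 and 226 ± 27.3 CPM at 4h, and Pou5f1 lost its call without replicate 1 of clone 4 at 4h (adjusted p = 0.061 by edgeR).

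Formative epiblast genes gave 11 higher and 3 lower among 24 tested, beside 17.2% and 16.8% of all genes, and 6 and 1 with libraries scaled to their total alone. Zic2, a zinc-finger factor, rose by 1.12, Sox4 by 2.03 and Pou3f1 (Oct6) by 1.49. Ccnd2, a D-type cyclin, went from 0.543, 1.19, 0.161 and 0.855 CPM to 22.5, 25.8, 9.11 and 4.74 CPM (log2 change 4.23 ± 0.28 SE, adjusted p = 3.7e-14), with the clone 4 libraries above those of clone 8. Dnmt3b rose by 0.41, with 0.22 in clone 4 (adjusted p = 0.18 by edgeR) and 0.63 in clone 8, and was not called with libraries scaled to their total alone (adjusted p = 0.17). Lefty1, an inhibitor of Nodal, fell by 1.23. Fgf5, the usual marker of this state, had at most 3 counts in any of the 8 libraries and was not tested.

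Genes of early mesoderm and endoderm gave 6 higher and 2 lower among 12 tested, beside 17.2% and 16.8% of all genes, with a median of 0.86. Evx1, a homeobox gene of the primitive streak (chr6:52313498-52318378, plus strand), had 2 counts in all over the 0h libraries and 310 over the 4h libraries, a ratio of 151 (95% exact interval from counting error, 41.3 to 1249). Its 4h levels were 13.3 and 15.9 CPM in clone 4 and 6.46 and 4.999 CPM in clone 8. Snai3, of the Snail family of repressors, was at 1.36, 0.895, 0.161 and 0 CPM at 0h and at 21.4, 25.6, 15.8 and 14.2 CPM at 4h (log2 change 5.26 ± 0.27 SE, adjusted p = 5.6e-17). Brachyury (gene symbol T) rose from 1.74 ± 1.30 to 10.1 ± 5.5 CPM, Twist1 from 1.53 ± 0.39 to 7.98 ± 1.89 CPM and Eomes from 3.85 ± 1.06 to 7.46 ± 2.00 CPM. Gsc fell by 1.40, and the epithelial cadherin Cdh1 fell by 0.23 with groups that overlapped, a call lost without replicate 2 of clone 4 at 0h (adjusted p = 0.051 by edgeR). The intermediate filament Vim rose by 0.87.

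Genes of the primitive endoderm, the lineage for which ERK signalling is needed in the embryo, were mostly too low to test. Of 25 listed genes 11 were tested, 3 of them higher and 2 lower, beside 17.2% and 16.8% of all genes, with a median of 0.02. Gata6 had at most 4 counts and Sox17 at most 7 in any of the 8 libraries. Of the genes of basement membranes in the list, Lamb1 rose by 0.76 and Sparc by 0.42, and Lama1 fell by 0.44. The calls of Sparc and Lama1 were lost with libraries scaled to their total alone (adjusted p = 0.18 and 0.45 by edgeR) and without the clone covariate (0.093 and 0.080). Genes that mark cells resembling the 2-cell embryo rose from a low level. Their summed level was 5.99 to 10.3 CPM at 0h and 18.7 to 21.6 CPM at 4h, and 5 of 6 tested members were higher (17.2% of all genes), among them Zscan4d (log2 change 1.64 ± 0.31 SE) and Usp17la (1.44 ± 0.26 SE). Zscan4 and Usp17l genes are near-identical copies, so that how reads were divided between them is uncertain.

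Of 14 tested genes of the BMP and Id list 6 were higher and 3 lower, beside 17.2% and 16.8% of all genes, with a median of -0.04. Scaled to library totals alone 4 were higher and 1 lower, with a median of 0.08. The Id genes encode inhibitors of basic helix-loop-helix factors. Id1 rose from 0.272, 1.34, 0.322 and 0.748 CPM to 16.7, 14.8, 10.3 and 9.998 CPM (log2 change 4.03 ± 0.28 SE, adjusted p = 2.3e-13). Id3 rose from 0.815 and 1.64 CPM in clone 4 and 4.66 and 6.52 CPM in clone 8 to between 26.6 and 29.4 CPM in all 4h libraries. Bmp4 itself went from 2.27 ± 1.71 to 21.7 ± 4.35 CPM (log2 change 3.22 ± 0.21 SE, adjusted p = 1.7e-14), and the inhibitory Smad7 from 48.4 ± 7.1 to 121 ± 14.2 CPM. Rgma, a BMP coreceptor, and the ligand Bmp7 fell by 1.49 and 0.75.

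Genes of the Wnt list gave 10 higher and none lower of 16 tested by edgeR at an adjusted p of 0.05 (none lower at an unadjusted p of 0.05 either), and 7 higher and none lower by DESeq2. Of all genes 17.2% were higher and 16.8% lower. With libraries scaled to their total alone 5 of the 16 were called higher by edgeR. The T-cell factors Tcf7l2 and Tcf7, which carry the Wnt signal to DNA, rose by 0.99 and 0.72, and the ligand Wnt7b rose from 0.312 ± 0.302 to 2.23 ± 0.55 CPM. Cdx2, a caudal homeobox gene of trophectoderm and posterior mesoderm, was at 2.99 and 2.09 CPM in clone 4 and at 0 and 0.214 CPM in clone 8 at 0h, and at 8.47 and 8.18 CPM and at 0.949 and 1.32 CPM at 4h. It rose in each clone (log2 change 1.95 ± 0.33 SE, adjusted p = 2.2e-05), and the lowest 4h library lay below the highest 0h library. The GSK3 inhibitor of the medium, which activates the Wnt pathway, is named in the growth protocol that all samples share.

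**Figure D3:**
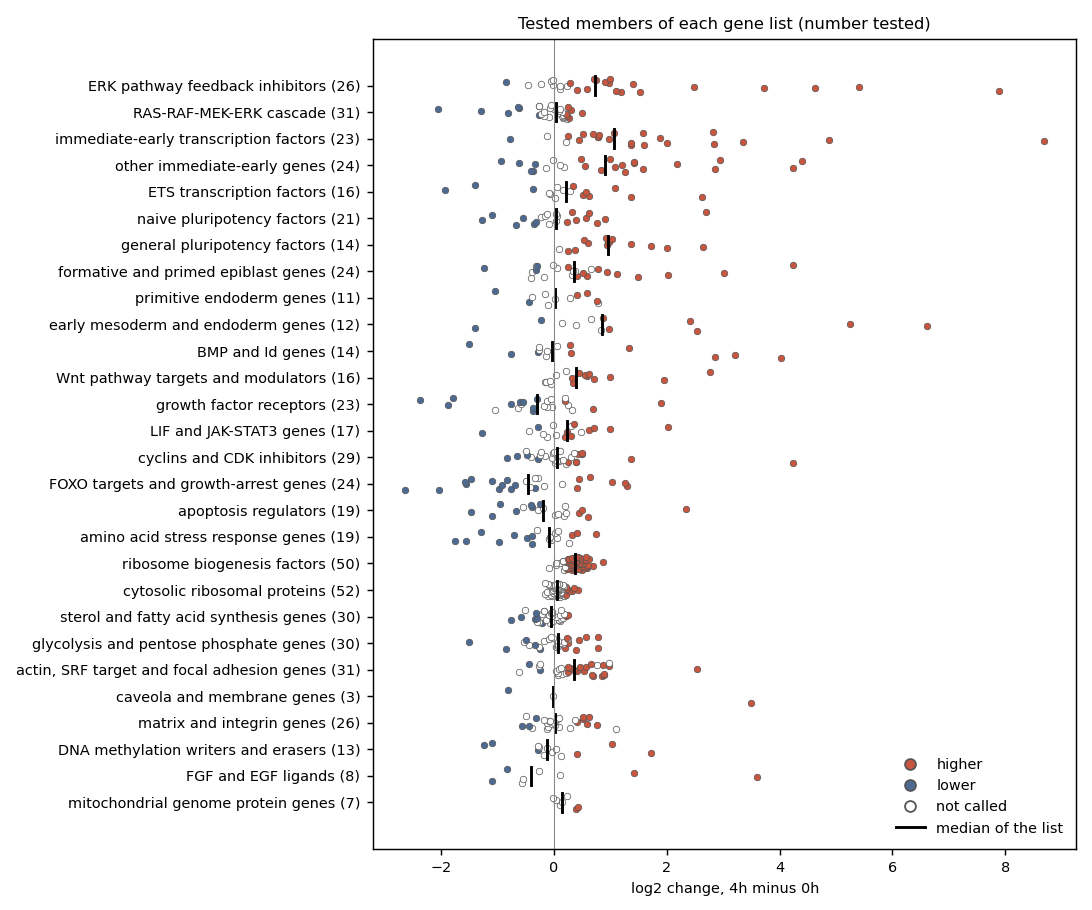
Log2 change from 0h to 4h (horizontal axis) of every tested member of the 28 gene lists, each point 1 gene, filled where called higher or lower and open where not called, with the median of each list as a bar and the number tested in brackets. Medians of the feedback inhibitors (0.73), immediate-early factors (1.07) and shared pluripotency factors (0.95) lie well to the right of 0, and that of the FOXO and growth-arrest genes (-0.45) to the left.

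Of 23 tested receptors of growth factors 9 were lower and 3 higher, beside 16.8% and 17.2% of all genes, with a median of -0.30. Scaled to library totals alone 3 were lower and 2 higher, with a median of -0.17. Csf3r, the receptor of granulocyte colony-stimulating factor, was at 19.3, 15.2, 11.3 and 10.3 CPM at 0h and at 3.41, 2.22, 3.23 and 2.10 CPM at 4h (log2 change -2.36 ± 0.19 SE, adjusted p = 5.4e-12). Pdgfrb, which also stands on the fibroblast and mesoderm marker lists, fell by 1.88, S1pr1 (a receptor of sphingosine 1-phosphate) by 1.78, Epha4 by 0.60, Kit by 0.37 and Fgfr1, the main FGF receptor of these cells, by 0.37. Epha2, a receptor of ephrins, rose from 68.4, 61.3, 54.2 and 60.6 CPM to 269, 265, 198 and 192 CPM (log2 change 1.91 ± 0.11 SE, adjusted p = 6.5e-16), and Erbb3, which pairs with other EGF receptors, rose by 0.69. The cytokine receptor subunit Il6ra, of the LIF and JAK-STAT3 list, rose from 7.93 ± 1.21 to 32.1 ± 4.8 CPM, and Socs3, the STAT3 target that limits this signal, from 15.02 ± 1.6 to 25.2 ± 8.7 CPM. That list gave 8 higher and 2 lower of 17 tested, beside 17.2% and 16.8% of all genes, and 3 higher with libraries scaled to their total alone.

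Several stress and growth-arrest genes fell. Of 24 tested targets of FOXO factors and related genes 12 were lower and 6 higher, beside 16.8% and 17.2% of all genes, with a median of -0.45. Nupr1, a small chromatin protein of the stress response, stood at 9.23, 5.37, 13.7 and 13.9 CPM at 0h and at 0.77, 0.935, 2.85 and 2.10 CPM at 4h (log2 change -2.63 ± 0.23 SE, adjusted p = 6.8e-11). Ddit4 (Redd1), an inhibitor of mTORC1, was at 20.1, 17.3, 33.4 and 37.8 CPM at 0h and between 5.89 and 6.84 CPM in all 4h libraries (log2 change -2.04 ± 0.17 SE, adjusted p = 2e-11), so that the clones stood apart at 0h. Trib3 fell by 1.56, Pdk4, which restrains pyruvate oxidation, by 1.58, Bmf, a pro-apoptotic protein, by 1.47, Sesn1 by 0.97, the CDK inhibitor Cdkn1b (p27) by 0.83 and Txnip by 0.75. Irs2 and Pdk1, which carry the insulin signal and restrain pyruvate oxidation, rose by 1.30 and 1.26.

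Genes of the response to amino acid shortage overlap with these. Of 19 tested 8 were lower, beside 16.8% of all genes, and 3 higher, close to the 17.2% of all genes, with a median of -0.08. Scaled to library totals alone 3 were lower and 1 higher, with a median of 0.02. Chac1, which breaks down glutathione, went from 5.10 ± 3.27 to 1.36 ± 0.64 CPM, with log2 changes of -0.71 in clone 4 (adjusted p = 0.26 by edgeR) and -2.68 in clone 8. Atf4, the factor that drives the response, fell by 0.38, with -0.24 in clone 4 (adjusted p = 0.067) and -0.50 in clone 8. Ddit3 (Chop) had a log2 change of -0.98 over both clones, with -0.29 in clone 4 (adjusted p = 0.60 by edgeR) and -1.89 in clone 8. Its call was lost without replicate 2 of clone 8 at 0h (-0.71, adjusted p = 0.077) and without replicate 1 of clone 8 at 4h (-0.72, adjusted p = 0.056). Scaled to library totals alone, Atf4, Ddit3, Txnip, Kit, Epha4 and Fgfr1 were no longer called. Among regulators of apoptosis 4 were higher and 7 lower of 19, beside 17.2% and 16.8% of all genes. With libraries scaled to their total alone 1 of these regulators was higher and 2 were lower. Pmaip1 (Noxa) was at 2.44 and 4.03 CPM in clone 4 and 16.1 and 15.8 CPM in clone 8 at 0h, and at 44.2 and 31.5 CPM and at 52.6 and 65.8 CPM at 4h (log2 change 2.35 ± 0.16 SE, adjusted p = 9.2e-14). Bcl2l1 (Bcl-xL), which protects cells, rose by 0.61 and its relative Bcl2l2 fell by 1.09.

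Other genes with the largest falls have varied roles. Pou2f3, the POU factor of tuft cells, went from 16.6, 16.1, 22.8 and 21.6 CPM to 3.74, 3.15, 9.49 and 9.998 CPM (log2 change -1.66 ± 0.17 SE). A4galt, the enzyme that makes the glycolipid Gb3, fell from 31.4 ± 3.6 to 8.52 ± 0.72 CPM, and Pag1, a membrane adaptor that recruits the kinase Csk, from 8.67 ± 4.48 to 2.64 ± 0.55 CPM. Cemip, which takes part in the breakdown of hyaluronan, fell by 1.67, Pnpla3, a lipid droplet protein, by 1.58 and Atg16l2 by 1.72. Ttll6, a tubulin polyglutamylase, Fam53b and Jakmip1 fell by 1.87, 1.72 and 1.67. In all 15 genes of this group the highest 4h library lay below the lowest 0h library. They were picked for large falls in all 4 same-numbered library differences, which favours such separation. The share of all genes with such separation was not counted.

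Most ribosome biogenesis factors rose by small amounts. Of 50 ribosome biogenesis factors 41 were higher and none lower at an adjusted p of 0.05 by edgeR, beside 17.2% and 16.8% of all genes, with a median log2 change of 0.37, and none was lower at an unadjusted p of 0.05 or by DESeq2, which also called 41 higher. Rrn3, which brings RNA polymerase I to the ribosomal genes, rose most, from 77.9, 85.9, 104 and 97.9 CPM to 165, 155, 175 and 172 CPM (log2 change 0.87 ± 0.07 SE, adjusted p = 5.9e-12). Rrs1 rose by 0.70, Grwd1 by 0.63, Nolc1 by 0.59, the abundant nucleolar protein nucleolin (Ncl) by 0.32 and Npm1 by 0.26. Npm1 lost its call when any of 4 libraries was left out (replicate 1 of clone 4 or replicate 2 of clone 8 at 0h, replicate 1 of either clone at 4h), with log2 changes of 0.20 to 0.24 and adjusted p = 0.063 to 0.11 by edgeR. None of the 50 reached 2-fold, and when libraries were scaled to their total alone the count fell to 6 higher with a median of 0.48. Of 52 tested ribosomal protein genes 7 were higher, no larger a share than the 17.2% of all genes, with a median of 0.06, none was lower by edgeR, and none was lower at an unadjusted p of 0.05 or by DESeq2.

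Cyclins and inhibitors of cyclin-dependent kinases gave 8 higher and 4 lower of 29, beside 17.2% and 16.8% of all genes. With libraries scaled to their total alone 2 were higher and 1 lower. Besides Ccnd2, the D-cyclin partner Cdk6 rose from 17.7 ± 2.4 to 46.0 ± 1.2 CPM (log2 change 1.36 ± 0.09 SE, adjusted p = 3.2e-14) and Ccne1 rose by 0.40. The hexokinases moved in opposite directions, since Hk2 rose from 111 ± 10.5 to 192 ± 22.4 CPM and Hk1 fell from 55.5 ± 4.1 to 31.0 ± 4.1 CPM. The glucose transporter genes Slc2a1 and Slc2a3 changed by 0.40 and -0.25, and Slc2a3 lost its call without replicate 2 of clone 8 at either 0h or 4h (adjusted p = 0.070 and 0.051 by edgeR). Over the whole list of glycolysis and pentose phosphate genes 8 were higher and 5 lower of 30, and of 30 genes of sterol and fatty acid synthesis 2 were higher and 6 lower. The shares of lower genes in both lists were near the 16.8% of all genes, and those of higher genes stand beside 17.2%, above it for glycolysis and below it for sterol synthesis. With libraries scaled to their total alone 2 glycolysis genes were higher and 2 lower, and no sterol gene was called by edgeR at an adjusted p of 0.05. Fdps, of the mevalonate pathway, fell by 0.77, a call lost without replicate 2 of clone 4 at 0h (adjusted p = 0.051 by edgeR).

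Genes of the actin cytoskeleton, many of them targets of SRF, gave 17 higher and 2 lower of 31 tested, beside 17.2% and 16.8% of all genes, with a median of 0.36. With libraries scaled to their total alone 8 were higher, with a median of 0.46. Zyx (zyxin) was at 2.44, 1.49, 4.66 and 4.49 CPM at 0h and at 19.4, 20.2, 19.7 and 18.4 CPM at 4h (log2 change 2.54 ± 0.17 SE, adjusted p = 8e-14), with 4h libraries within 2 CPM of each other. Beta-actin (Actb) went from 1170 ± 81 to 1896 ± 165 CPM, gamma-actin (Actg1) from 96.9 ± 11.1 to 174 ± 14.03 CPM and alpha-actinin 4 (Actn4) from 117 ± 7.1 to 215 ± 13.1 CPM. Vinculin (Vcl), of focal adhesions, rose by 0.67 and Wdr1, which promotes filament turnover, by 0.99. The cytolinker Plec rose by 1.31.

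Changes in absolute level single out abundant genes. Actb, at 1201, 1049, 1219 and 1210 CPM at 0h, gained 727 CPM, and Hsp90ab1 and Hspa8, heat shock chaperones, gained 351 and 232 CPM. With libraries scaled to their total alone neither chaperone was called (adjusted p = 0.43 and 0.099 by edgeR), and Hsp90ab1 was called in neither clone alone (adjusted p = 0.13 and 0.10). Among the genes named here that rose at least 2-fold, Egr1, Utf1 and Spry4 had the highest 4h levels per kilobase of exon, 63.3, 58.8 and 51.5 CPM per kb, against 5.86, 15.1 and 0.21 CPM per kb at 0h. Gm26917, annotated as a lincRNA, took 12.8% of counts on average over the 16 libraries and is among the 8 most abundant models, as are mt-Rnr1 and mt-Rnr2. What its reads stand for was not tested. Among called genes with 1 direction in all 4 same-numbered library differences it had the largest drop in CPM, from 130467 ± 11427 to 89445 ± 6356 CPM. It lost its call when any of 5 libraries was left out (replicate 2 of either clone at 0h, or any 4h library except replicate 1 of clone 4), with log2 changes of -0.49 to -0.56 and adjusted p = 0.061 to 0.092 by edgeR. The change was -144 CPM for Nanog, -135 CPM for Tfcp2l1, -113 CPM for the ubiquitin ligase Rnf213 and -73.1 CPM for the actin-bundling protein Lima1. Akap12 went from 576 ± 86.5 to 504 ± 109.9 CPM (log2 change -0.20 ± 0.07 SE, adjusted p = 0.031) and lost its call under 11 of its alternatives, 5 of them with a library left out (adjusted p = 0.069 to 0.089).

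Of 162 tested lincRNA genes 14 were higher and 28 lower. The former is a smaller share than the 17.2% of all genes, and the latter is close to their 16.8%. Neat1, the scaffold RNA of paraspeckles, fell from 73.3, 64.7, 63.5 and 76.0 CPM to 33.4, 38.2, 48.0 and 35.0 CPM (log2 change -0.85 ± 0.16 SE, adjusted p = 0.00011). Processed pseudogenes gave 22 higher and 4 lower of 135. The former is close to the 17.2% of all genes, and the latter is a smaller share than their 16.8%. Reads of such pseudogenes can stem from parent genes. The non-coding models 6330410L21Rik and 6330403L08Rik rose by 1.31 and 0.85, and both are annotated as antisense to a gene whose exons they overlap, so that without strand-specific counting their reads and those of the partner cannot be told apart.

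Of 52636 identifiers 52 had at most 3 counts in every library of 1 group and more than 3 in every library of the other. At 0h 32 genes had at most 3 counts in each library and more than 3 in each 4h library, and 3 of them had no count at 0h. Soga3 was at 11.1, 11.8, 7.79 and 7.63 CPM at 4h against 0 in all 0h libraries, at least 18.6-fold higher against the floor of 3 counts per library. Dusp2, a phosphatase of the nucleus, had 5 counts over the 0h libraries and 170 over the 4h libraries, a ratio of 33.0 (95% exact interval from counting error, 13.9 to 103). Cyth4, Pou4f2 (a POU factor of retinal neurons), Nppb (the precursor of brain natriuretic peptide) and Nav3 reached 5.52, 4.67, 3.53 and 3.498 CPM. The reverse pattern was met by 20 genes, all at low levels at 0h and none without counts in all 4h libraries. Unc5cl led these with 2.07 ± 0.52 CPM at 0h and had 5 counts over the 4h libraries. Klb, the coreceptor of FGF19 and FGF21 family hormones, had 35 counts over the 0h libraries and 4 over the 4h libraries. The chemokine receptor gene Cxcr4 had 28 and 6. Gstt2 had 42 and 11, a ratio of 0h to 4h of 3.93 (95% exact interval from counting error, 1.99 to 8.46). Klb, Cxcr4 and Gstt2 did not pass the filter and were not tested. At such counts the rule does not show that expression was lost.

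The 4h values can be set beside those of the 2h and rev libraries, bearing in mind that comparisons with 0h share the 0h libraries. Egr1 was at 478 ± 137 CPM at 2h and 284 ± 81 CPM at 4h (log2 change from 2h to 4h -0.75, adjusted p = 9.98e-05), and Fos at 11.2 ± 4.1 and 3.94 ± 0.86 CPM (-1.41, adjusted p = 2.5e-05). Myc did not pass the test between 2h and 4h (33.9 ± 11.4 and 31.2 ± 7.9 CPM, adjusted p = 0.76). Spry4 and Dusp6 rose further, by 0.74 and 0.86, and Trh, Ccnd2 and Sox4 rose most of the genes set side by side here, by 2.29, 2.82 and 1.80. Of the genes that fell, Elf3 was already at 22.9 ± 1.9 CPM at 2h against 24.5 ± 7.3 CPM at 4h, whereas Nanog was at 344 ± 79 CPM at 2h and 250.0 ± 78.5 CPM at 4h (-0.48, adjusted p = 2.5e-05). After the MEK inhibitor Spry4 was at 3.12 ± 1.20 CPM, Egr1 at 10.7 ± 6.4 CPM and Cavin1 still at 43.9 ± 8.0 CPM.

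**Figure D4:**
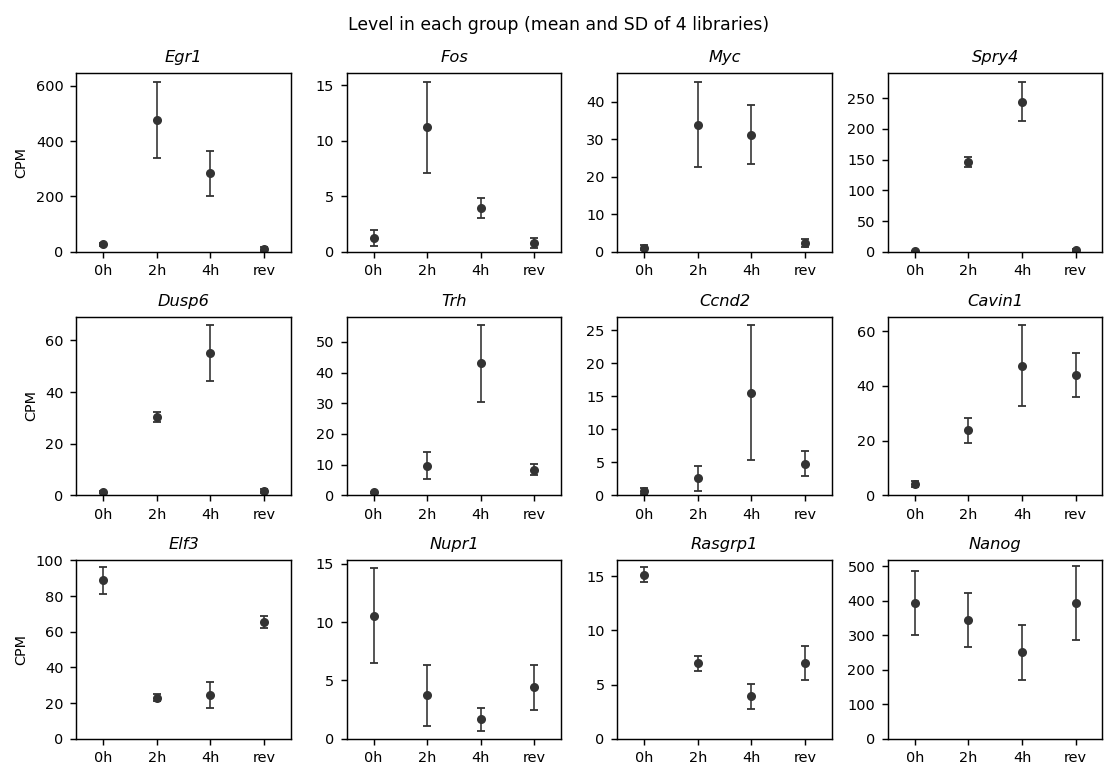
Level in CPM (vertical axes, each starting at 0) of 12 genes in the 4 groups, as the mean and SD of 4 libraries. Egr1 and Fos are higher at 2h than at 4h, Trh and Ccnd2 rise mainly between 2h and 4h, and Cavin1 is at 43.9 CPM in the rev group against 47.4 CPM at 4h.

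Some of the named changes lost their call with another scaling, without the clone covariate or in 1 clone. With libraries scaled to their total alone, Bcl2l1, Bmp7, Ccne1, Cdh1, Elk4, Fdps, Ksr1, Lima1, Map2k1, Ncl, Npm1, Rhob, Rnd3, Slc2a1, Slc2a3, Akap12 and Gm26917 also lost their calls (adjusted p = 0.055 for Bcl2l1 to 0.87 for Akap12 by edgeR). Without the clone covariate Cdh1, Cdkn1b, Cdx2, Npm1, Slc2a1, Slc2a3, Tfcp2l1 and Akap12 did so too (adjusted p = 0.066 for Cdx2 to 0.46 for Akap12). Fitted by clone, the changes of Atf4, Chac1, Hspa8, Slc2a3, Socs3 and Map2k1 were called in clone 8 and not in clone 4, as was that of Fdps, and those of Fos, Gsc, Kit, Ksr1, Pag1, Pdk4, Pou5f1, Sox2, Rhob, Rnd3, Cdh1, Bmp7, Ncl, Tfcp2l1, Akap12 and 6330403L08Rik in clone 4 and not in clone 8. Npm1 and Gm26917 were called in neither clone alone. For the genes just listed as called in 1 clone or in neither, the difference between the clones was not called (adjusted p of at least 0.095 by edgeR, for Hspa8). Klf4 and Mthfd2, described elsewhere, are not among them.

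The log2 change, taken with its sign, differed between the clones for few genes. A test of the difference called 15 genes with a larger log2 change in clone 8 (0.123% of those tested) and 23 with a smaller 1 (0.188%). A gene that fell less in clone 8, such as Elf3, thus counts as larger there. These counts rest on few libraries, as they ran from 2 to 56 and from 3 to 46 when a library was left out, and were 0 and 1 by edgeR when the share of the 8 most abundant models was a covariate (372 and 388 at an unadjusted p of 0.05). DESeq2 without that covariate called 10 and 12. Peg10, an imprinted gene derived from a retrotransposon, was at 11.1, 7.91, 13.8 and 9.19 CPM at 0h and at 76.2 and 81.2 CPM in clone 4 and 23.7 and 25.8 CPM in clone 8 at 4h. Its log2 change was 3.11 ± 0.16 (SE) in clone 4 and 1.14 ± 0.18 in clone 8 (difference -1.96 ± 0.25, adjusted p = 4e-05, 2 libraries a clone and group), and this difference kept its call in every alternative run, the covariate included.

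The other genes named for a clone difference were less stable. Id3, Pmaip1 and Plec rose less in clone 8, with differences of -2.01, -1.57 and -0.83 on the log2 scale, and for Id3 and Pmaip1 the clone 8 libraries were higher at 0h. Mthfd2, a mitochondrial folate enzyme, fell by 0.87 in clone 8 and had an estimate of 0.13 in clone 4. Slc12a4, a potassium-chloride cotransporter, rose by 0.82 in clone 4 and fell by 0.56 in clone 8. Elf3 fell by 2.36 in clone 4 and 1.45 in clone 8, and Klf5 rose by 0.36 and 1.18. Mras, a RAS-related GTPase, and Gbx2, a homeobox factor of the naive state, fell by 0.51 and 0.52 in clone 4 and rose by 0.77 and 1.33 in clone 8. The models Gm25732 and Gm43333 had estimates of -3.28 and -2.47 in clone 4 and of 1.76 and 1.25 in clone 8. When the fit held that share as a covariate, 11 of these 12 differences (Peg10 included in the 12) lost their call, and 7 did so without the second 4h library of clone 8. With libraries scaled to their total alone 5 lost it, among them Elf3 (difference 0.28, adjusted p = 0.61 by edgeR) and Klf5 (0.21, adjusted p = 0.69), with Gbx2, Mras and Plec.

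**Figure D5:**
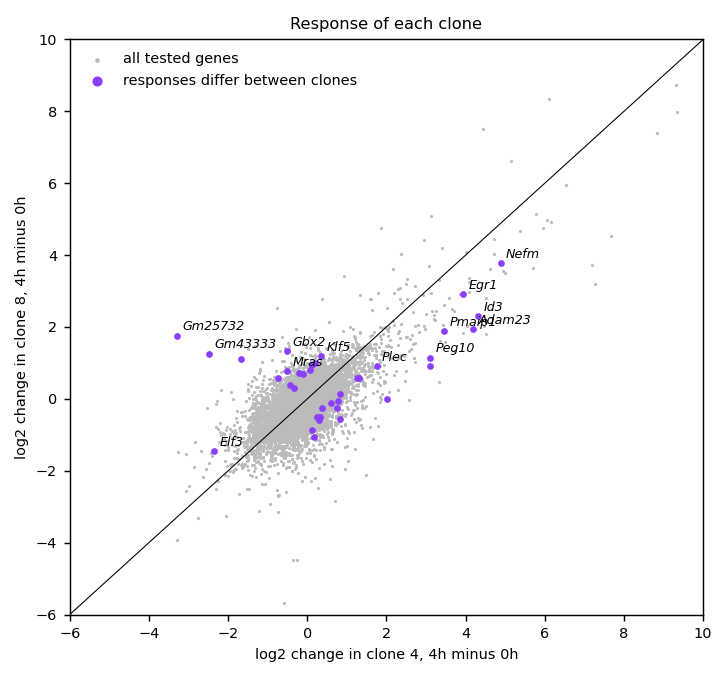
Log2 change from 0h to 4h in clone 8 (vertical axis) against that in clone 4 (horizontal axis) for all tested genes, each point 1 gene, with the diagonal of equal response and the 38 genes with a called difference in colour. Spry4 (8.82 in clone 4 against 7.39 in clone 8), Plaur (5.70 against 3.65) and Peg10 (3.11 against 1.14) lie below the diagonal, and Snai3 (4.44 against 7.52) and Gbx2 (-0.52 against 1.33) above it; of these only Peg10 and Gbx2 had a called difference.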

How the data were processed

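RNA was made into ribosomal-RNA-depleted libraries with NEBNext kits, per the labels' protocols. Reads were handled with bcl2fastq 2.19.1 and STAR 2.5.3a on mm10, per the submitters' processing notes; the counting tool, annotation and strand setting are not given in the sources used here. The deposited table holds raw counts per Ensembl gene for the 16 libraries, with no normalization by the authors. Of 52636 identifiers 52489 were matched to GENCODE M21 for names and positions. Without a stated strand setting, genes with antisense or overlapping partners are uncertain, which holds for 52 (opposite strand) and 16 (same strand) of the 204 named genes.

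From the counts, genes were kept with filterByExpr, libraries were scaled with TMM, and all 16 were fitted together (group plus clone) with edgeR 4.0.16 in R 4.3.3 by the quasi-likelihood test, with Benjamini-Hochberg adjustment over all 12215 genes at 0.05. The SE of a log2 change was derived from its F statistic. A model with a mean per clone and group tested clone differences. CPM are TMM-scaled and are not corrected for length. The fit was tested on simulated data. Intervals cover counting error only.

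Genes were named by rule. The 15 largest rises and falls and the 10 largest changes in CPM each way were taken from called genes. These had a mean of at least 5 CPM over the 8 libraries and 1 direction in all 4 same-numbered library differences. Further rules took the 6 clone differences each way with the smallest adjusted p and genes at or under 3 counts per library on 1 side. Non-coding genes and members of the gene lists were named beside these. The members and lists were chosen with earlier results of these data known. Alternatives were other scalings (DESeq2 1.42.0 among them), filters and covariates, and each library left out.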

Additional observations from a re-analysis of the deposited data

Results flagged for a closer look

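About 1 in 20 sets of 4 like samples would by chance hold a value that stands apart, a rate that need not hold for sets of 2 clones. In 14 of 408 sets of 4 libraries (204 genes in 2 groups) the highest or lowest library stood apart from the other 3. At 0h these were Actb at 1049 CPM (the others at 1201 to 1219) and Nr5a2 at 65.3 CPM in replicate 2 of clone 4, Zscan4a at 1.90 CPM in replicate 1 of clone 4, and Pdk4 at 1.93 CPM, Spred2 at 35.2 CPM and Nav3 at 0.322 CPM (the others at 0) in replicate 1 of clone 8. At 4h, replicate 2 of clone 8 stood apart for Csrnp1 at 14.7 CPM, Ier2 at 91.0 CPM, Prdm14 at 18.7 CPM (the others at 10.8 to 11.6) and Trib3 at 3.68 CPM. Replicate 1 of clone 8 did so for Il17rd at 57.9 CPM and Zscan4a at 2.28 CPM, and replicate 1 of clone 4 for Pou4f2 at 3.74 CPM and Zfp36 at 3.41 CPM.

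The response at 4h differed between the clones in a test of the difference for 14 of the 204 named genes, of which 12 were named for their small adjusted p in this same test, so this count is no measure of how common such differences were. Over all 12215 tested genes 0.123% had a larger and 0.188% a smaller log2 change, taken with its sign, in clone 8. With the share of the 8 most abundant models as a covariate 0 and 1 were called by edgeR (372 and 388 at an unadjusted p of 0.05). The log2 change was smaller in clone 8 for Id3 (-2.01), Peg10 (-1.96), Pmaip1 (-1.57), Slc12a4 (-1.37), Nefm (-1.10), Egr1 (-1.03), Mthfd2 (-0.998) and Plec (-0.83). It was larger in clone 8 for Klf5 (0.83), Elf3 (0.91), Mras (1.27), Gbx2 (1.84), Gm43333 (3.72) and Gm25732 (5.04).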

How the results depend on the processing

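The counts of 2098 higher and 2048 lower genes became 554 and 327 with scaling to library size alone, and 305 and 424 with a log2 change of at least 1; without the clone covariate 1323 were lower. They ran from 1807 to 2077 and from 1646 to 1977 with a library left out. Genes with a larger response in clone 8 (15) numbered 4 with library size alone, 56 without a filter, 0 with the share of the 8 models as covariate, 6 with a log2 difference of at least 1, and 2 to 56 with a library left out. Genes with a smaller 1 (23) numbered 71 without a filter, 1 with the share, 10 with a difference of at least 1, 12 with DESeq2, and 3 to 46 with a library left out. A lone library of a clone is there assumed to vary like the other groups. The causes were not tested.

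Of 3870 alternative values of 204 named genes 3656 kept direction and side of the threshold, 198 lost the call, 1 gained it and 15 changed sign. The sign changes concern genes that were not called: Gbx2 (-0.12 to 0.38 with a library left out), Gm25732 (-0.046 with library size alone, -0.49 with DESeq2, -0.36 to 0.79 with a library left out), Gm43333 (0.57 with the share, -0.99 to 0.46 with a library left out) and Slc12a4 (-0.011 with the share). Of 199 called genes 91 lost the call somewhere, 89 of them with a log2 change of at least 1 and 50 with library size alone.

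Same-numbered libraries did not deviate together (correlation over 8646 genes -0.22 in clone 4 and 0.09 in clone 8), so the numbers are not taken as pairs. With a replicate block 2072 genes were higher and 1996 lower, with 96.8% of calls kept. At 0h, 3 counts correspond to 0.321 to 0.815 CPM, which limits what can be said of genes at such levels.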
